A study of Mus musculus with 5 samples.

Results

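Signals of 9 genes were examined in the soleus, a slow postural calf muscle, of 5 reloaded C57Bl/6 mice: the cytokine genes Csf3, Il1b and Il6, the cytokine receptor genes Il6st, Csf2ra, Csf2rb, Csf2rb2 and Csf3r, and the kinase gene Btk. They were taken by gene symbol from the 223 probes of an expression array, and each of the 9 had 1 probe. All animals belong to a single group, marked wt in the titles and placed at day 7 by the series title. Each array was given 3 microgram of total RNA from frozen sections of the muscle. The titles also carry the codes HUR and R7, which they do not spell out. Age and sex are not given in the labels, and the treatment before reloading is not described in them. Muscle of other conditions was not analysed here, so no condition was compared. The mice are called 1, 3, 4, 5 and 6, as in the titles, which do not say how the animals were housed or sampled.

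Cytokines are secreted proteins that act on cells through surface receptors. Those for interleukin 6 and the colony-stimulating factors studied here activate Janus kinases and STAT factors inside the cell. Interleukin 6 binds its own alpha chain (Il6ra) and signals through gp130, the product of Il6st, a chain shared by a whole family of cytokines and present on many cell types. The haematopoietic receptors among the genes examined here serve mainly white blood cells and their precursors. Muscle that bears weight again after disuse is known to be entered by neutrophils and macrophages, and muscle fibres can themselves release interleukin 6.

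The deposited values are linear intensities in arbitrary units, and some lie below 0 on every array. A signal was called above background at 2 levels. The first was a value above 0. The second was a value above the mirrored minimum, which is the lowest value of the array with its sign turned, since background scatter reached that far below 0. The mirrored minimum was 0.0168, 0.0059, 0.0041, 0.0103 and 0.0109 in mice 1, 3, 4, 5 and 6. Array totals ran from 70.8 to 137, and between 20 and 59 of the 223 probes were at or below 0. Muscle fibre markers were read as a check that the tissue was muscle. All 8 with a probe, among them Myh7, Myh4 and Mb, were above the mirrored minimum in every mouse, as were 45.3% of all probes. This check does not tell soleus from other muscles.

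The ligand genes gave no signal above background in any mouse, whereas 4 of the 5 receptor genes did in at least 4 mice. Of all probes, 78% were above 0 in at least 4 mice, and 57.4% were above the mirrored minimum (defined above) in at least 4. None of the 15 ligand values (3 genes in 5 mice) was above 0, against 19 of the 25 receptor values and 81.9% of the values of all probes. Above the mirrored minimum lay 0 of 15 ligand values, 17 of 25 receptor values and 64.2% of all values. The receptor shares, 76% above 0 and 68% above the mirrored minimum, were thus near those of all probes. The receptor values at or below 0 were the 5 of Csf3r and that of Csf2rb in mouse 1. By gene, 3 of the 9 were above 0 in all 5 mice (Il6st, Csf2ra and Csf2rb2), as were 65.9% of all probes. In none of the mice were 4 of them above 0 (Csf3, Il1b, Il6 and Csf3r), as were 7.62% of all probes. These 4 were also the only ones above the mirrored minimum in no mouse, which held for 20.2% of all probes. Each class holds few genes, each read by 1 probe, so the classes were not tested against each other. A value at or below 0 bounds a transcript only by the background of its probe.

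**Figure D1:**
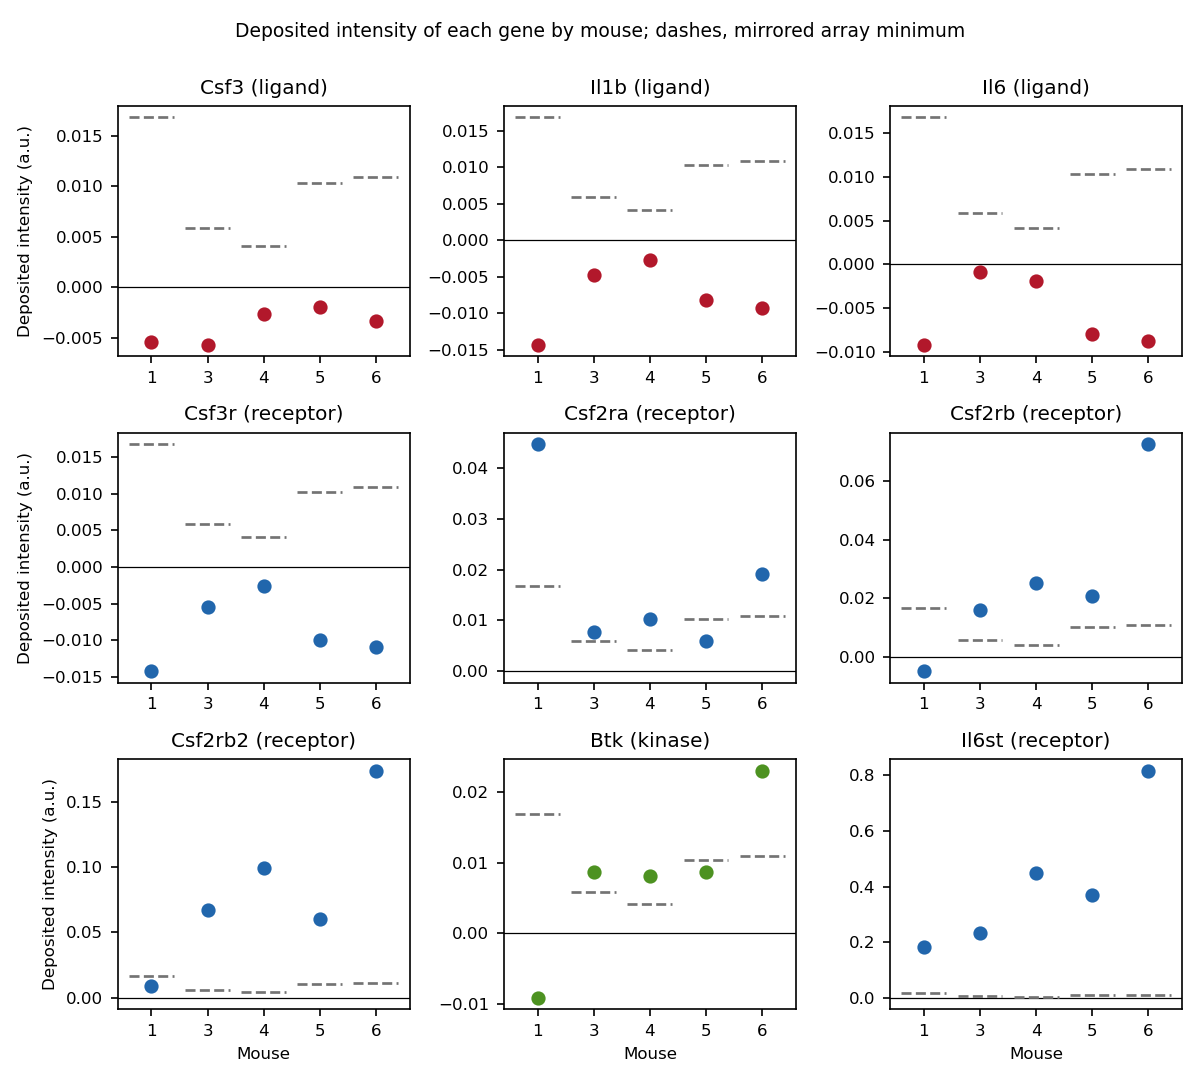
Deposited intensity (vertical axis, arbitrary units, a separate linear scale for each gene) of the 9 genes in mice 1, 3, 4, 5 and 6. Points are single arrays, the solid line marks 0 and dashes mark the mirrored minimum of each array. Csf3, Il1b, Il6 and Csf3r lie below 0 in every mouse, and Il6st lies above the dashes in every mouse.

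Among the ligands, Il1b lay at the foot of every array. It encodes interleukin 1 beta, a pro-inflammatory cytokine made chiefly by activated monocytes and macrophages. Its deposited value was -0.0143, -0.0048, -0.0027, -0.0082 and -0.0093 in mice 1, 3, 4, 5 and 6. It was never higher than the 6th lowest of the 223 probes. Il6 had values of -0.0092, -0.0009, -0.0019, -0.008 and -0.0088 in mice 1, 3, 4, 5 and 6. Between 1.79% and 12.1% of the probes of an array were below it, so that in mouse 3 it was close to 0 while in mice 5 and 6 it was near the lowest values.

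Csf3 encodes granulocyte colony-stimulating factor, which drives the production of neutrophils, and Csf3r its receptor on neutrophils and their precursors. The Csf3 values were -0.0054, -0.0057, -0.0027, -0.002 and -0.0034 in the same order of mice. In mouse 5, 18.8% of the probes lay below Csf3, against 0.448% in mouse 3. Csf3r was at -0.0142, -0.0054, -0.0026, -0.01 and -0.0109 and was among the 6 lowest probes on every array. It was the lowest of all 223 probes in mouse 6 and thereby set the mirrored minimum there. With the bound taken from the other probes alone, an alternative chosen after seeing the data, 17 of 25 receptor values passed as before. Both the ligand and the receptor of this pair were thus without a signal above background.

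The 250 bases before the start of transcription are shown for both interleukin genes that were at background in every mouse and for Il6st, the gene of the 9 that lay highest within its arrays. RefSeq promoters of GRCm38.p6 were found for 7 of the 9 genes. Capitals mark matches, on either strand, to any of 4 short motifs. The GC box, a site of Sp1-like factors, was searched as GGGCGG. For the TATA box of the core promoter the letters were TATAAA. The AP-1 site, bound by Fos and Jun family proteins, was searched as TGAGTCA. The PU.1-type ETS site of blood cell genes was searched as GAGGAAG. The sequences read 5′ to 3′ along the strand of the gene.
Il6, chr5:30012864-30013113, plus strand: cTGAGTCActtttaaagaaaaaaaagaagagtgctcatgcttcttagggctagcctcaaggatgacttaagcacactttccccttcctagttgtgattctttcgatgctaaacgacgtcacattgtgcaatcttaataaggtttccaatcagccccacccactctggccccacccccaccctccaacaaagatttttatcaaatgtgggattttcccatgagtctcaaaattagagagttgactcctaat
Il1b, chr2:129371140-129371389, minus strand: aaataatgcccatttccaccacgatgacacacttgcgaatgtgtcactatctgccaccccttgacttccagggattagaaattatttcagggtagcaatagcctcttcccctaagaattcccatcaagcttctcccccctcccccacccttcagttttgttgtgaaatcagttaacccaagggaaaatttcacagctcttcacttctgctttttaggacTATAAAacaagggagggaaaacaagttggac
Il6st, chr13:112463820-112464069, plus strand: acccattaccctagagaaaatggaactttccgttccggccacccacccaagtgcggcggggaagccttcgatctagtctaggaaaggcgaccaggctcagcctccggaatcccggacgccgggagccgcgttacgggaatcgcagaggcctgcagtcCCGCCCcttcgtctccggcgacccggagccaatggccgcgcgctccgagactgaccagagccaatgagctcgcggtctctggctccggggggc

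In these windows Il6 held 1 AP-1 match, Il1b 1 TATA match, and Il6st 1 GC box. Over 32851 mouse promoter windows of the same length, 4.46% held an AP-1 match, 12.4% a TATA match, 32.7% a GC box and 10.6% a PU.1-type match. The share of G and C was 42.8% for Il6 and 44.4% for Il1b, below the lower quartile of 45.2% of all windows. It was 66.0% for Il6st, above the upper quartile of 61.2%, with 26 CG dinucleotides against 3 in Il6, 2 in Il1b and a median of 6. Csf2ra was also rich in G and C, at 64.8%, and held 1 GC box and 2 overlapping PU.1-type matches. The window of Csf3r (60.0%, against a median of 52.4%) held 1 PU.1-type match. The window of Csf2rb2 (56.4%) held 1 PU.1-type match, and that of Btk (49.6%) none of the 4 motifs. A match describes the letters only and does not show that a factor binds.

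Il6st gave a signal far above background in all 5 mice. Its deposited value was 0.1814, 0.2331, 0.4495, 0.3713 and 0.8175 in mice 1, 3, 4, 5 and 6, a mean of 0.411 ± 0.251 (SD, n = 5). These values were 10.8 to 109.6 times the mirrored minimum of their arrays, and between 82.5% and 91.0% of the probes of an array lay below them. Il6st was the only one of the 9 genes above the mirrored minimum in every mouse, which held for 45.3% of all probes. Mouse 1 had the lowest and mouse 6 the highest signal, 4.51 times apart as deposited.

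After quantile normalisation between arrays, the Il6st signal was 0.160 in mouse 1, 0.280 in mouse 3, 0.464 in mice 4 and 5 and 0.537 in mouse 6. The coefficient of variation (CV, SD divided by mean, in percent) was 41.0%, against a median of 33.1% over 146 probes. It was 26.0% without mouse 1. Relative to the trend of spread with signal, the SD of Il6st was 2.27-fold, which was not called wider (limma, adjusted p = 0.89 over 146 probes). In the same fit none of the 146 probes was called wider or narrower, a share of 0%, and 7 were wider and 8 narrower at an unadjusted p below 0.05. No array was repeated, so spread between mice includes measurement noise.

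The alpha chain that pairs with gp130 on interleukin 6 target cells, Il6ra, also had a probe. It was at -0.0012, 0.0171, 0.0216, 0.0083 and 0.0502 in mice 1, 3, 4, 5 and 6. It was therefore above 0 in 4 mice and above the mirrored minimum in 3, with mouse 1 lowest and mouse 6 highest as for Il6st. Within the interleukin 6 system, both receptor chains had signals above 0 in at least 4 mice and the ligand in none. Of all probes, 78% were above 0 in at least 4 mice and 7.62% in none.

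The receptor for granulocyte-macrophage colony-stimulating factor is made of a specific alpha chain, encoded by Csf2ra, and a beta chain shared with the receptors for interleukins 3 and 5, encoded by Csf2rb. The Csf2ra signal was 0.0447, 0.0078, 0.0103, 0.0059 and 0.0191 in mice 1, 3, 4, 5 and 6. It was above 0 in all mice and above the mirrored minimum in 4, the exception being mouse 5. In mouse 1 it stood above 63.2% of the probes, and in the other mice above 35.0% to 40.4%. Apart from mouse 1, the signal was thus in the dim part of the arrays, at 0.573 to 2.51 times the mirrored minimum.

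Quantile-normalised, Csf2ra was at 0.0412 in mouse 1 and at 0.00733, 0.0108, 0.0109 and 0.0120 in mice 3, 4, 5 and 6. The value of mouse 1 was 3.43 times the next highest, and its CV of 84.8% fell to 17.1% when mouse 1 was left out. The SD was 1.56-fold that of the trend with all mice and 0.486-fold without mouse 1. Neither was called (limma, adjusted p = 0.89 over 146 probes and 0.97 over 161 probes for a wider spread). Mouse 1 was thus the mouse with the highest Csf2ra signal and the lowest Il6st, Csf2rb and Csf2rb2 signals. Its array had the largest mirrored minimum and 53 probes at or below 0, and the part of the array in these values was not tested.

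Csf2rb and Csf2rb2 are paralogous genes that neighbour each other in the mouse genome, with only the microRNA gene Mir7676-1 starting between them in the RefSeq table. Csf2rb encodes the shared beta chain, whereas the product of Csf2rb2, a chain found in the mouse, serves interleukin 3 alone. The deposited values of Csf2rb were -0.0049, 0.0159, 0.0251, 0.0209 and 0.0728 in mice 1, 3, 4, 5 and 6. Those of Csf2rb2 were 0.0087, 0.0671, 0.0988, 0.0603 and 0.1737 in the same mice. Both were above the mirrored minimum in mice 3, 4, 5 and 6 and neither was in mouse 1, where Csf2rb was below 0 and Csf2rb2 at 0.518 times the mirrored minimum. Passing the mirrored minimum in at least 4 mice held for 57.4% of all probes.

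The paralogues held different places within the arrays. In mice 3 to 6, between 47.1% and 65.0% of the probes were below Csf2rb, and between 73.1% and 77.6% were below Csf2rb2, so these ranges did not overlap. Because a signal depends on its probe, this does not show which transcript was more abundant. The probe sequences were not used here, and the share of either signal that comes from the other paralogue was not tested.

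Over the 4 mice in which both were above 0, the paralogues were both highest in mouse 6 and next highest in mouse 4 as deposited. The log2 deviation of Csf2rb from its own mean over these mice was -0.81, -0.15, -0.42 and 1.38 in mice 3, 4, 5 and 6. For Csf2rb2 it was -0.44, 0.11, -0.60 and 0.93. The order of mice 3 and 5 differed, with Csf2rb lower in mouse 3 and Csf2rb2 lower in mouse 5. The ratio of the Csf2rb2 to the Csf2rb signal within an array was 4.22, 3.94, 2.89 and 2.39 in mice 3, 4, 5 and 6. Its range was 0.82 on the log2 scale, while the size of the ratio itself reflects 2 different probes. Csf2rb was only 2.69 and 2.03 times the mirrored minimum in mice 3 and 5, and no array was repeated. Whether the paired signals changed by unequal factors was therefore not tested.

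Scaling each array to the median of its probes that were above 0 in all mice narrowed both genes. The log2 deviations were then -0.66, 0.03, -0.10 and 0.73 for Csf2rb and -0.29, 0.30, -0.28 and 0.28 for Csf2rb2 in mice 3, 4, 5 and 6. Csf2rb stayed highest in mouse 6, whereas Csf2rb2 was highest in mouse 4, by a margin of 0.113 against 0.111. With mouse 1 left out and quantile normalisation, the CV was 42.7% for Csf2rb and 17.3% for Csf2rb2 (n = 4). Neither was called wider (limma, adjusted p = 0.89 and 0.97 over 161 probes, filtered and fitted anew). With all 5 mice the SD of Csf2rb2 was 3.82-fold that of the trend (limma, adjusted p = 0.89), and 0.697-fold without mouse 1, so its spread came from the value of mouse 1, which was below the mirrored minimum. With values as deposited the same gene was called wider (limma, adjusted p = 0.0083), as were 2 of all 147 probes in that fit, a share of 1.36%.

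**Figure D2:**
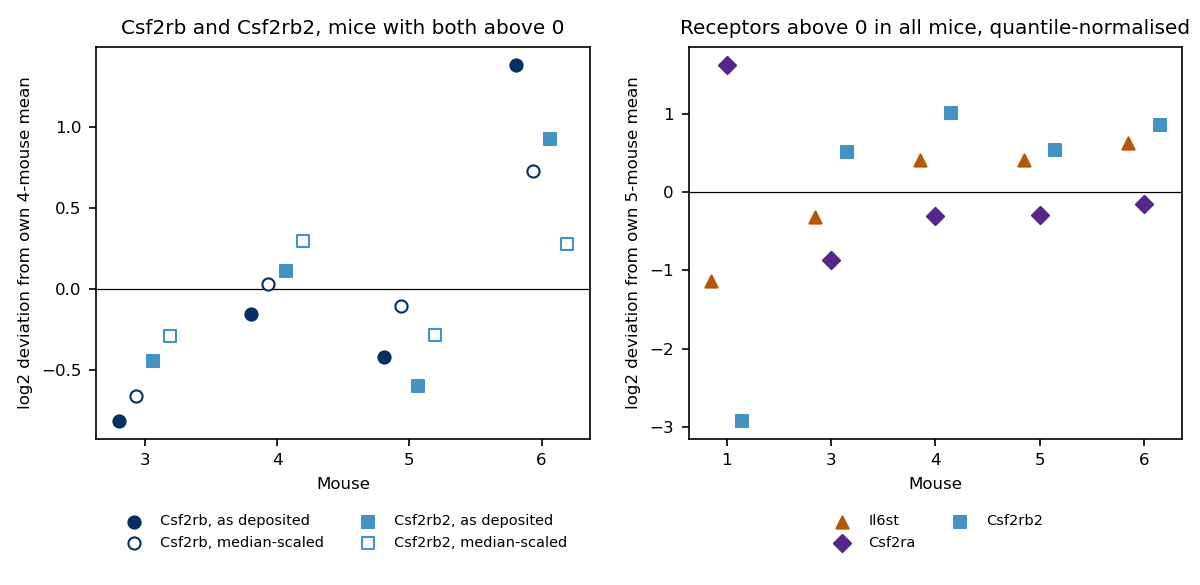
Left, log2 deviation of Csf2rb (circles) and Csf2rb2 (squares) from their own mean over the 4 mice in which both were above 0, as deposited (filled) and after scaling to the array median (open). Right, log2 deviation of the quantile-normalised Il6st, Csf2ra and Csf2rb2 signals from their own mean over 5 mice, where mouse 1 is at 1.62 for Csf2ra, -1.13 for Il6st and -2.92 for Csf2rb2. Points are single arrays.

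Btk encodes a tyrosine kinase of the Tec family that acts downstream of receptors in B cells and myeloid cells. Its deposited value was -0.0091, 0.0087, 0.0081, 0.0086 and 0.023 in mice 1, 3, 4, 5 and 6. It was above 0 in 4 mice, as were 78% of all probes in at least 4, and above the mirrored minimum in mice 3, 4 and 6. Apart from mouse 1 it stood above 35.4% to 44.8% of the probes. Without mouse 1 its CV was 28.4% after quantile normalisation (n = 4), and 60.1% as deposited.

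**Figure D3:**
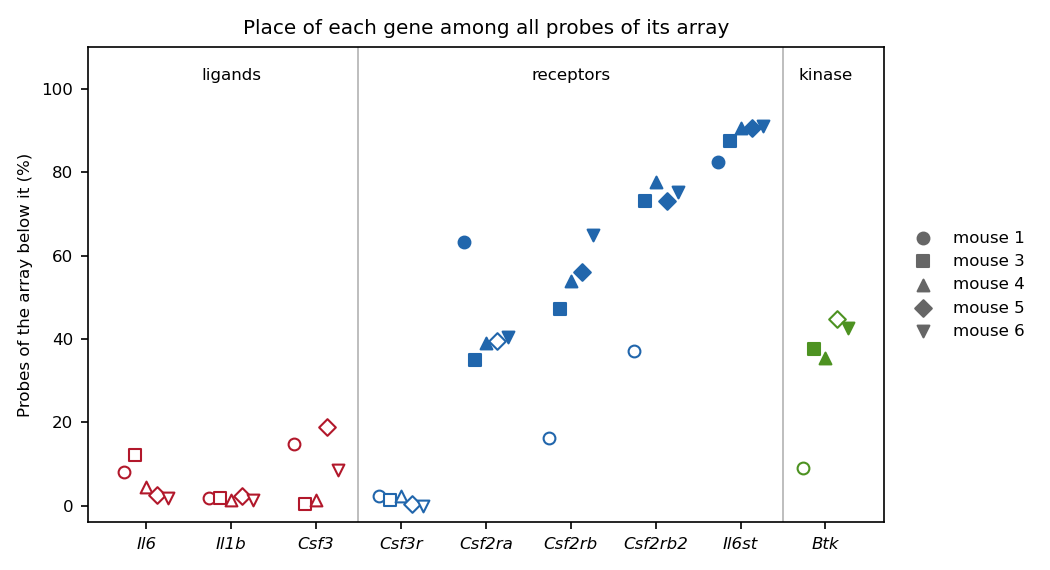
Place of the 9 genes within each array, as the percentage of the 223 probes whose deposited value was lower (vertical axis). Each symbol is a mouse, filled where the value was above the mirrored minimum of the array and open where it was not. The ligands and Csf3r lie below 19% in every mouse, Il6st above 82%, and Csf2rb, Csf2rb2 and Btk have their lowest place in mouse 1.

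The lowest and the highest mouse were the same for 4 of the genes. Of the 5 genes above 0 in at least 4 mice, 4 (Il6st, Csf2rb, Csf2rb2 and Btk) were lowest in mouse 1 and highest in mouse 6 as deposited, while the order of the other mice differed between them. Over the 174 probes above 0 in at least 4 mice, 21.3% had this order, and 55.7% were highest in mouse 6. Csf2ra differed, with its highest value in mouse 1 and its lowest in mouse 5. A highest value in mouse 1 was also found for 35.6% of the 174 probes. The highest mouse depends in part on the scale of whole arrays, since after scaling to the array median Csf2rb2 was highest in mouse 4. In mouse 1, Csf2rb, Csf2rb2 and Btk were below the mirrored minimum of 0.0168. That bound was also above Btk in mice 3, 4 and 5 and above Csf2rb in mouse 3. For Btk and Csf2rb the lowest mouse is therefore not measured above background.

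The genes with the most similar pattern over the 5 mice were found as those with the smallest root mean square difference in log2 deviation, among 137 named probes. For Il6st these were Fosl2, an AP-1 family transcription factor, at 0.12 and the ribonuclease gene Ang2 at 0.14, against a median of 0.74. Fosl2 signals were 0.0228, 0.0336, 0.0655, 0.0554 and 0.0767 in mice 1, 3, 4, 5 and 6 after quantile normalisation. For Csf2rb2 the nearest were Flt1, a VEGF receptor of endothelium, at 0.20 and the topoisomerase gene Top3a at 0.55, against a median of 1.54. In mouse 1 the deposited values of Flt1 and Top3a were 0.003 and 0.0009, below the mirrored minimum, as was that of Csf2rb2. Their low deviations there, and the likeness that follows from them, are thus not measured above background. Top3a was above the mirrored minimum in only 2 mice. Csf2ra was nearest to the cathepsin gene Ctsh (0.35) and to Ywhaz (0.37), against a median of 0.90, and both were highest in mouse 1, at deviations of 1.16 and 1.08. As deposited or scaled to the median, the second places went to Vcam1 for Csf2rb2 and to Pcna for Csf2ra. Vcam1 was above the mirrored minimum in only 1 mouse, and was below it in mouse 1. For Csf2rb2, Csf2ra and the 2 genes nearest to each after quantile normalisation the deviation furthest from 0 was that of mouse 1. The likenesses share the scaling of the arrays and are descriptions without a test.

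Of 51 other cytokine and cytokine receptor genes listed, 3 had a named probe. Tgfb1, transforming growth factor beta 1, was above the mirrored minimum in all 5 mice, at 0.0665 ± 0.0313 as deposited (SD, n = 5). It is a ligand, so signals above background were not limited to receptors. Epor, the erythropoietin receptor, was above 0 in 4 mice but above the mirrored minimum in none, with a highest value of 0.0076 in mouse 1. The third was Il6ra. None of the 32 listed genes of cytokine signal transduction, such as the Janus kinases and STAT factors, had a named probe among those analysed here.

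Of 21 listed genes that cytokines are known to induce, 13 had a probe, of which 9 were above 0 in all mice, 2 in some and 2 in none. Above 0 in all mice were 65.9% of all probes, and in none 7.62%. Above the mirrored minimum in all mice were 4 of the 13, against 45.3% of all probes. The probe of highest mean signal was that of Jun, an AP-1 subunit, at 0.127 ± 0.0708 (SD, n = 5) as deposited, and that of lowest mean the gelatinase gene Mmp9, below 0 in every mouse. This order is one of probe signals and does not rank the transcripts. The related AP-1 gene Junb was below 0 in every mouse, from -0.008 in mouse 1 to -0.0012 in mouse 4. These genes respond to many other signals, so their levels do not measure cytokine action.

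Few markers of the white blood cells in which these receptors act were on the array. Of 21 listed leukocyte markers, 4 had a probe, Btk among them. Mmp8 and Mmp9, proteases of neutrophil granules, were below 0 in all mice, while 7.62% of all probes were above 0 in none. Mmp12, macrophage elastase, was above 0 only in mouse 6, at 0.0007. The sum of the 4 markers was -0.0414, -0.0005, -0.0015, -0.0039 and 0.0171 in mice 1, 3, 4, 5 and 6, and thus highest in mouse 6, where Csf2rb and Csf2rb2 were also highest. The sum includes Btk, and without it was below 0 in every mouse, from -0.0323 in mouse 1 to -0.0059 in mouse 6. The part of leukocyte number in the receptor signals was not tested. In whole muscle, fewer cells of a type and less RNA per cell cannot be told apart. Of 8 listed endothelial markers, 6 had a probe. All 6 were above 0 in every mouse and 4 were above the mirrored minimum in every mouse. Among all probes, 65.9% were above 0 in every mouse and 45.3% were above the mirrored minimum in every mouse. The summed signal of all 6 markers was 0.876 in mouse 6 against 0.369 to 0.512 in the others. These leukocyte and endothelial sums are of deposited values without scaling. The array median was 0.0338 in mouse 6, against 0.013 to 0.0215 in the others. The part of array scale in the sums was not tested.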

How the data were processed

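The authors deposited linear array intensities for 223 probes on 5 arrays of reloaded soleus. For the scanner, background correction and scaling, details were not given in the sources used here, and the column medians (0.013 to 0.0338) show no common scale. Probes were named through the platform annotation and RefSeq (GRCm38.p6): 205 had 1 symbol, 0 several and 18 none, and 204 matched the RefSeq table. Detection was counted on the deposited values.

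For the spread between mice, log2 values of the 147 probes above 0 on all arrays were quantile normalised. After leaving out 1 probe without variance, each variance was compared with a robust trend over mean signal (limma 3.58.1, fitFDistRobustly, statmod 1.5.0, R 4.3.3), with Benjamini-Hochberg adjustment at 0.05 over 146 probes. On simulated data, a 5-fold SD given to 3 of 146 probes was recovered in 82.5%. All other simulated probes had the SD of the trend, without the scatter around it that the real probes have. In the real fit, the SD furthest above the trend, 3.82-fold for Csf2rb2, was not called. The 82.5% is therefore not the share that would be recovered on these arrays. Places within an array and ratios between probes depend on the probe and do not rank transcripts. For arrays, their number limits the precision.

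All 9 members were named. In each list of cytokine-related genes with probes, those of highest and lowest mean signal were named. The genes nearest in pattern were named by the same rule for the 3 members above 0 on every array. Other genes were named after their values were seen. Members and lists were chosen with earlier results of these data known. Alternatives were other bounds, scalings, filters and leaving out each mouse. For each spread alternative the probes were filtered and the trend fitted anew, over 161 probes without mouse 1. Figures were drawn with matplotlib 3.10.9.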

Additional observations from a re-analysis of the deposited data

Results flagged for a closer look

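Of 15 sets of 5 values checked for a mouse far from the others (deposited values of the 9 genes, and quantile-normalised values of Il6st, Csf2ra and Csf2rb2 on the linear and log2 scales), 3 met Dixon's criterion, and all 3 concern mouse 1. Chance gives about 1 in 20 for independent sets, which these are not. Csf2ra in mouse 1 was far above the other mice, with a gap of 0.862 of the range on the linear and 0.714 on the log2 scale. On the log2 scale Csf2rb2 in mouse 1 was far below the other mice, with a gap of 0.872 of the range. That value was below the mirrored minimum, so its distance on the log2 scale is not a measured one, and on the linear scale the gap was 0.684, which did not meet the criterion. As deposited, none of the 9 genes met the criterion.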

How the results depend on the processing

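Of 129 recomputed values, 119 kept their direction, their side of the threshold and, for counts and CVs, stayed within 1.5 times. The 0 genes called narrower were unchanged in every alternative run for them. The ligand count of 0 above background and the 4 genes above 0 in no mouse were unchanged too. Their values were all below 0 and every bound tried was 0 or higher, so this was fixed in advance. The 119 include the ligand counts and the counts of genes above background in no mouse, which therefore say nothing about stability. Leaving out 1 mouse gave 3 to 5 genes above 0 in all remaining mice (5 without mouse 1) and 1 to 3 above the mirrored minimum (3 without mouse 1, 2 without mouse 5). As deposited, 1 gene, Csf2rb2, was called wider than the trend, at 2.41-fold, as were 2 of all 147 probes (1.36%). Leaving out 1 mouse gave an SD relative to the trend of 0.486 to 1.72 for Csf2ra and 0.697 to 4.18 for Csf2rb2, in both the lowest without mouse 1. Over all settings the adjusted p (limma) was 0.0083 to 0.97 for Csf2rb2, 0.80 to 0.97 for Csf2ra and 0.60 to 0.89 for Il6st. The cause of the low Csf2rb2 value in mouse 1 was not tested. One alternative kept all probes by raising low values to a floor, set below the smallest value above 0 of each array. All values of the ligands and Csf3r were then set by the floor, as were those of Csf2rb and Btk in mouse 1. No paired analysis was possible because there is 1 group. Signals near the mirrored minimum, as of Csf2ra and Btk, are limited by background.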
